A study of Mus musculus with 6 samples.

Results

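The keratin gene family was described across 6 mouse tumours. Members were the genes whose symbol is Krt followed by digits alone, which gave 47 of the 34745 genes in the deposited table. The tumours grew under the skin of the flank of C57BL/6J mice and came from 3 animals on a normal diet (ND 1 to ND 3) and 3 on a high cholesterol diet (HCD 1 to HCD 3). The labels give no ages, no diet composition and no other treatment or allele, and they name the injected cells as B16F10, a mouse melanoma line grown in serum-containing medium, in both diets. They do not state how the numbered tumours were kept apart as replicates, so p-values measure the spread between these samples.

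Keratins are the intermediate filament proteins of epithelial cells. A type I (acidic) keratin pairs with a type II (basic) keratin to form the filament, and each epithelium uses its own pairs. Krt8 with Krt18 is the pair of simple epithelia such as liver, Krt7, Krt19 and Krt20 are added in ducts, glands and gut, Krt5 with Krt14 is the pair of basal epidermal cells, Krt1 with Krt10 that of the layers above them, and Krt6, Krt16 and Krt17 are the keratins of wounded or activated epidermis. Hair follicles use a further set. Melanocytes are not epithelial cells and build their filaments mainly from vimentin.

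The members fell into 5 simple-epithelial keratins, 17 keratins of skin and other stratified epithelia, 22 keratins of the hair follicle and 3 genes placed in no class (Krt23, Krt80 and Krt222). Of the 47 genes, 39 had at least 1 count, 16 had counts in all 6 libraries, and 8 had 0 counts everywhere, which allows up to 0.0228 CPM over the 6 libraries (3 counts of the summed total, counting error alone). CPM, the count scaled to a common library total, serves to compare libraries. FPKM, which also divides by gene length, serves to compare genes. Library totals ran from 20351637 to 26228074 counts. The label of the tumours was set against a list of 10 pigment cell genes, of which Tyr, Dct, Mlana and Oca2 had 0 counts, and the list summed to between 6.30 and 13.1 CPM per library. A list of 16 hepatocyte genes summed to between 4111 and 6038 CPM, most of it from the albumin gene Alb at 3611 ± 530 CPM (SD, n = 6). Afp and Apob came next at 633 ± 151 and 455 ± 85.8 CPM (SD, n = 6 each), while 5 of the 16 were under 1 CPM.

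The start regions are shown for all 10 of the 15 members that reached 1 CPM in a diet and had a promoter entry in RefSeq (GRCm38.p6), so that members with and without a common promoter motif can be set beside their levels. In all, 34 of the 47 members had an entry. A TATA-type motif, spelled TATAA, was searched on both strands in the 100 bases from 80 before to 20 after each RefSeq start. It was present in 21 of 35 keratin entries (60%) and in 3261 of 32851 entries of all genes (9.93%). The stretches of 30 bases below run 5′ to 3′ on the strand of the gene, with matches on either strand in capitals.
Krt18: ctcccgcggcgaTATAAcaacaggtcgagg
Krt8: ggcctcttcttTTATAAagggccttcgctg
Krt20: tctcttgaactcTATAAaaggtcatctcca
Krt7: tgtgtgcgctcagcctccgccccgcatgga
Krt23: gcaaagggcataaaaccatctcaagcagtc
Krt5: cttctaaggggataaaaggggacctcaaat
Krt14: ataaggctgctctgtactgagaggaggatc
Krt76: ggcagcctgggaTATAAaggccagcttccc
Krt10: gccctctcagtaTATAAaggctcggcactg
Krt39: gaaggaaggctaTATAAgcacttcaaagga
They lie at chr15:102028185-102028214 (plus strand, Krt18), chr15:102004326-102004355 (minus, Krt8), chr11:99438165-99438194 (minus, Krt20), chr15:101412363-101412392 (plus, Krt7), chr11:99493131-99493160 (minus, Krt23), chr15:101712916-101712945 (minus, Krt5), chr11:100206041-100206070 (minus, Krt14), chr15:101892932-101892961 (minus, Krt76), chr11:99389373-99389402 (minus, Krt10) and chr11:99521349-99521378 (minus, Krt39). The motif lay 19 bases before the RefSeq start of Krt18 and 29 before that of Krt20. The RefSeq start of Krt18 lies 36 bases inside the 5′ end of the GENCODE gene, so its motif also lies inside that gene. At Krt8 the motif spanned the RefSeq start, which lies 140 bases inside the 5′ end of the GENCODE gene. Krt7, Krt23, Krt5 and Krt14 had no match in their windows, and the stretch shown for them is 40 to 11 bases before the start. The RefSeq start lies 1360 bases inside the GENCODE gene for Krt7 and 1518 bases for Krt14. Of the 10 members, 6 had the motif, with mean levels from 0.919 FPKM (Krt39) to 1229.7 FPKM (Krt18), and 4 did not, with mean levels from 1.58 FPKM (Krt14) to 24.6 FPKM (Krt7). Only the exact spelling TATAA was counted, and the stretches of Krt23 and Krt5 hold the similar letters ataaaa. A match describes letters in a window and is not a measured site.

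Simple-epithelial keratins made up nearly all keratin RNA in every tumour. By FPKM they held 98.5%, 98.8% and 98.8% of the keratin sum in ND 1 to ND 3 and 99.4%, 98.99% and 97.6% in HCD 1 to HCD 3. Skin and other stratified keratins held between 0.175% and 0.282% in 5 libraries and 1.16% in HCD 3. Hair follicle keratins held between 0.0537% and 0.140%. The same shares by CPM averaged 98.6% for the simple-epithelial, 0.457% for the skin and 0.117% for the hair follicle class.

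**Figure D1:**
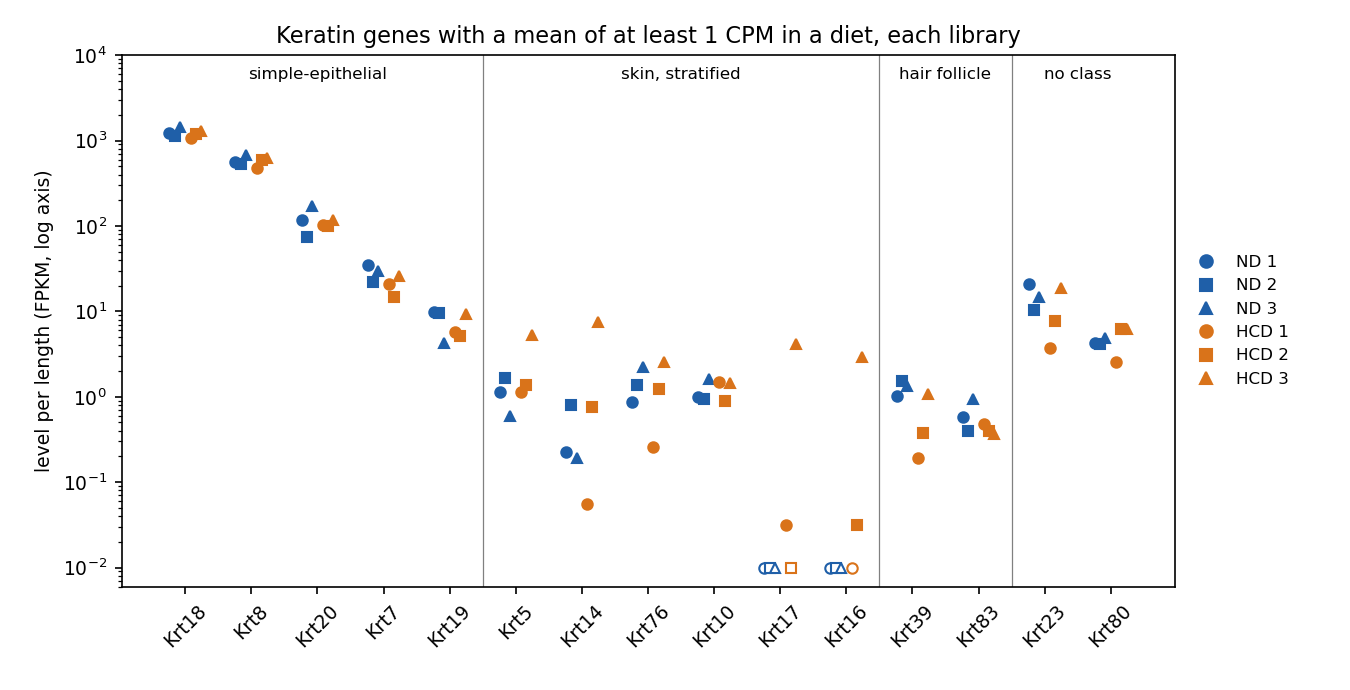
Level per length (FPKM, log axis) of the 15 keratin genes that reached a mean of 1 CPM in a diet, grouped by class, with 1 point per library (blue ND, orange HCD, shape by number). Open symbols at the bottom stand for 0 counts. Krt18 and Krt8 lie above all others in every library, and Krt14, Krt16 and Krt17 are highest in HCD 3.

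Krt18, the type I partner of the simple-epithelial pair (ENSMUSG00000023043, chromosome 15, 102028180 to 102032027), had the highest level of the family. Its FPKM was 1237, 1118 and 1460.1 in ND 1 to ND 3 and 1061, 1204 and 1298 in HCD 1 to HCD 3, and its mean ranked 21 among all genes. Krt8, its type II partner (ENSMUSG00000049382, chromosome 15, 101996698 to 102004482), had 559, 526 and 671 FPKM in ND and 483, 599 and 625 FPKM in HCD libraries and ranked 44. By mean CPM, which does not use gene length, Krt18 ranked 33 and Krt8 ranked 78. Both genes were highest in ND 3 and lowest in HCD 1, and the diets overlapped. By CPM, the level of Krt18 varied 1.404-fold and that of Krt8 1.417-fold between the extreme libraries. The FPKM ratio of Krt18 to Krt8 was 2.21, 2.12 and 2.17 in ND and 2.20, 2.01 and 2.08 in HCD libraries, so the pair moved nearly in step. Together the pair held between 90.2% and 92.8% of keratin FPKM. Exons of Krt8 overlap the antisense gene Gm36026, and since the strand setting of the counting is not given in the sources used here, reads of both cannot be told apart.

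Vimentin gives the scale outside the family. Vim, the intermediate filament gene of mesenchymal cells, averaged 157 ± 11.4 FPKM as deposited (SD, n = 6), against 1229.7 ± 141 FPKM for Krt18 and 577 ± 68.3 FPKM for Krt8 (SD, n = 6 each). The deposited value of Vim implies 7809 bases. With the 2193 bases of its longest principal GENCODE transcript it averaged 560 ± 40.5 FPKM (SD, n = 6), close to Krt8 (532 FPKM by the same rule) and below Krt18 (1198 FPKM). Among 15 other intermediate filament genes 0 passed the diet test, with 8 higher and 1 lower in HCD tumours among 9 tested and a median log2 fold change of 0.05.

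Krt20, a keratin of gut epithelium, urothelium and Merkel cells (ENSMUSG00000035775, chromosome 11, 99428403 to 99438150), came next at 114 ± 31.8 FPKM (SD, n = 6). Its level was 118, 73.6 and 170 FPKM in ND and 103, 101 and 116 FPKM in HCD libraries. The ND libraries thus held both the lowest and the highest value, while the HCD libraries lay close together. Krt20 amounted to between 6.59% and 11.6% of Krt18 by FPKM.

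Krt7, a type II keratin of ducts and glands (ENSMUSG00000023039, chromosome 15, 101411043 to 101430313), had 34.5, 22.0 and 29.5 FPKM in ND and 21.02, 14.6 and 25.8 FPKM in HCD libraries. HCD 2 was lowest and ND 1 highest, and ND 2 and HCD 3 overlapped. Its level per length depends on the length used. The deposited values imply 8594 bases, and the longest principal transcript of GENCODE M21 has 4094 bases, with which Krt7 averaged 51.5 instead of 24.6 FPKM. Its exons overlap the antisense gene Gm671. Krt19, a type I keratin of bile ducts and other ducts (ENSMUSG00000020911, chromosome 11, 100140810 to 100148665), had 9.76, 9.49 and 4.26 FPKM in ND and 5.75, 5.12 and 9.32 FPKM in HCD libraries. ND 1, ND 2 and HCD 3 were high and the other 3 libraries low, a pattern that crossed the diets. With the GENCODE length (1576 instead of 2334 bases) Krt19 averaged 10.8 instead of 7.28 FPKM.

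The order by mean FPKM was Krt18, Krt8, Krt20, Krt7, Krt23, Krt19 and Krt80. Each of the first 4 exceeded the next gene in 6 of 6 libraries. By these deposited values Krt23 exceeded Krt19 in 5 of 6 libraries and Krt19 exceeded Krt80 in 4 of 6. The order of Krt19 and Krt80 depends on the length used. With GENCODE lengths Krt19 lay between 6.31 and 14.5 FPKM per library and Krt80 between 1.47 and 3.63 FPKM, without overlap. Krt23 and Krt19 were not separated beyond their spread by either length. Below Krt80 came Krt5, Krt14, Krt76, Krt10 and Krt39, with means between 0.919 and 1.86 FPKM. Krt14 exceeded Krt76 in 1 of 6 libraries although its mean was higher, since that mean rested on HCD 3.

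Krt23, a type I keratin placed in no class (ENSMUSG00000006777, chromosome 11, 99477974 to 99493137), varied 5.82-fold between libraries by CPM. It had 20.7, 10.3 and 14.8 FPKM in ND and 3.70, 7.76 and 18.8 FPKM in HCD libraries. HCD 1 was lowest, and HCD 3 lay within the ND range. Krt80, a type II keratin found at desmosomes and in the cytoplasm of many epithelia (ENSMUSG00000037185, chromosome 15, 101347444 to 101370162), had 4.27, 4.17 and 4.84 FPKM in ND and 2.55, 6.15 and 6.28 FPKM in HCD libraries. The 3 ND values lay inside the range of the HCD values. Its exons overlap the antisense gene Gm35853, and with the GENCODE length (3067 instead of 1774 bases) its mean was 2.72 instead of 4.71 FPKM. The third gene of no class, Krt222, a keratin-like gene, averaged 0.443 CPM.

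The list of 24 keratin linkers and epithelial junction genes, such as desmosomal and hemidesmosomal proteins, had 23 measured members. Dsp, the desmoplakin that anchors keratin filaments at desmosomes, averaged 275 ± 28.5 CPM on the normal and 253 ± 36.6 CPM on the high cholesterol diet (SD, n = 3 each). Plec, the plectin that crosslinks them, averaged 484 ± 19.2 and 456 ± 9.86 CPM. Itga6, the integrin chain of hemidesmosomes, averaged 1264 ± 90.9 and 1051 ± 142 CPM. The epithelial cadherin gene Cdh1 was low, at 2.62 ± 0.996 and 2.95 ± 0.452 CPM, and Esrp1, an epithelial splicing regulator, had 5 counts, all in HCD 3. Its paralogue Esrp2 averaged 19.2 ± 3.91 CPM, the epithelial adhesion gene Epcam 49.6 ± 15.4 CPM and the tight junction genes Cldn3 and Cldn4 27.8 ± 4.57 and 13.4 ± 6.02 CPM (SD, n = 6 each), so the epithelial genes of the list differed widely in level. Of the 20 tested linkers, 8 were higher and 12 lower in HCD tumours with a median log2 fold change of -0.08, and 0 passed the test.

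Between the diets, no keratin gene passed the test. The quasi-likelihood test of edgeR was fitted on all 15539 genes with enough counts, among them 14 of the 47 members, with Benjamini-Hochberg adjustment over all of them. It called 0 of the 14 members higher and 0 lower at an adjusted p under 0.05, as it did for all genes (0% in both directions), and the smallest adjusted p of a member was 0.839. At an unadjusted p under 0.05 this fit also had 0 of 14 members, against 5.3% of all tested genes (1.81% higher and 3.48% lower). Some other fits gave smaller unadjusted p. For Krt7 it was 0.0287 with the DESeq2 Wald test and 0.00956 with edgeR and a block for replicate number. For Krt39 it was 0.0476 with the DESeq2 Wald test, 0.0217 with limma-voom and 0.0412 with edgeR and adjusted deviances. The share of all genes under 0.05 in those fits was not counted. DESeq2 gave an adjusted p for 7 of the 14 members and called 0 of them, against 0% higher and 0.0576% lower of all genes with one. The 3 HCD libraries lay all above or all below the 3 ND libraries for 0 of 14 members, against 4.75% and 6.36% of all tested genes. Among all 39 members with counts, the HCD libraries lay above in 1 and below in 3, against 4.01% and 5.37% of all genes with counts. These were Krt79 (0 counts in ND, and 4, 5 and 5 in HCD 1 to HCD 3) and, below, Krt27, Krt31 and Krt81, each with at most 23 counts in total. Fold changes were positive for 5 and negative for 9 of the 14, with a median log2 fold change of -0.13, while all tested genes had a median of 0.01, with 53% positive and 47% negative.

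**Figure D2:**
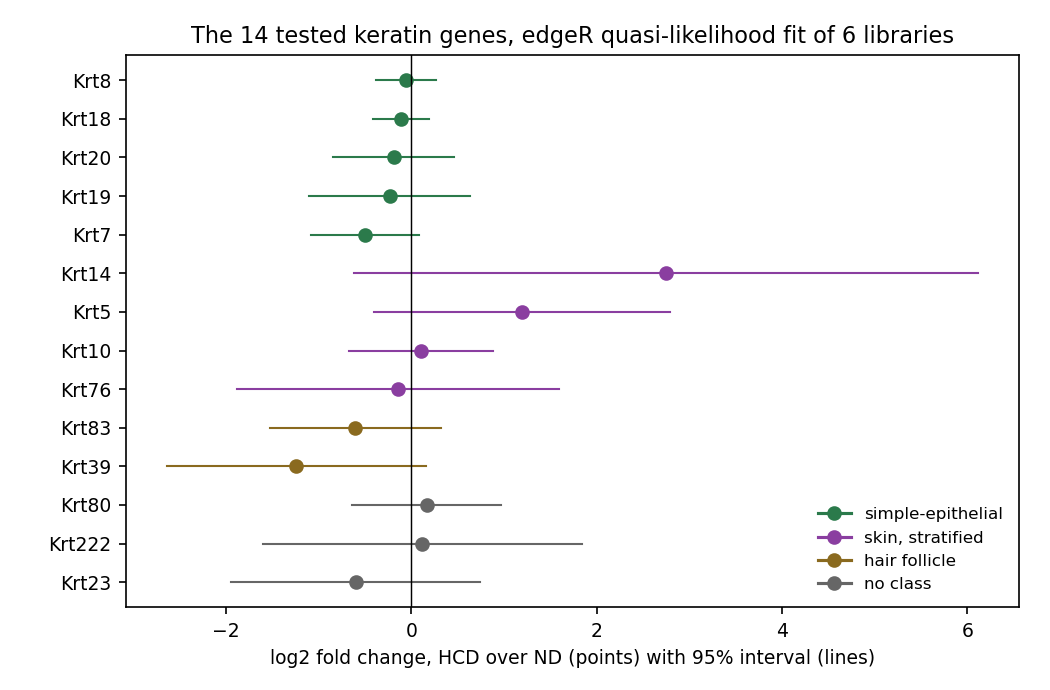
Log2 fold change of HCD over ND (points) with its 95% interval (lines) for the 14 tested keratin genes, coloured by class. All 14 intervals include 0, the narrowest being those of Krt18 and Krt8 and the widest that of Krt14.

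All 5 simple-epithelial keratins had negative fold changes, with a median of -0.19. Krt18 averaged 1789 ± 247 CPM on the normal diet (SD, n = 3). On the high cholesterol diet its mean was 1658 ± 197 CPM (SD, n = 3), and the log2 fold change was -0.11 (95% interval -0.42 to 0.20). For Krt8 the means were 1062 ± 138 and 1024 ± 151 CPM, and the log2 fold change was -0.05 (interval -0.38 to 0.27). The direction turned for Krt8 without HCD 1 (0.060) or without ND 3 (0.053) and for Krt20 without ND 3 (0.13). The interval was wider for Krt20 (-0.84 to 0.46), whose 3 ND libraries were far apart, and for Krt19 (-1.10 to 0.64). For Krt7 the means were 248 ± 57.8 and 176 ± 50.8 CPM. Its log2 fold change was -0.50 ± 0.25 SE (interval -1.08 to 0.09, edgeR adjusted p 0.839). In these bulk samples fewer cells of a type and less RNA per cell cannot be told apart.

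**Figure D3:**
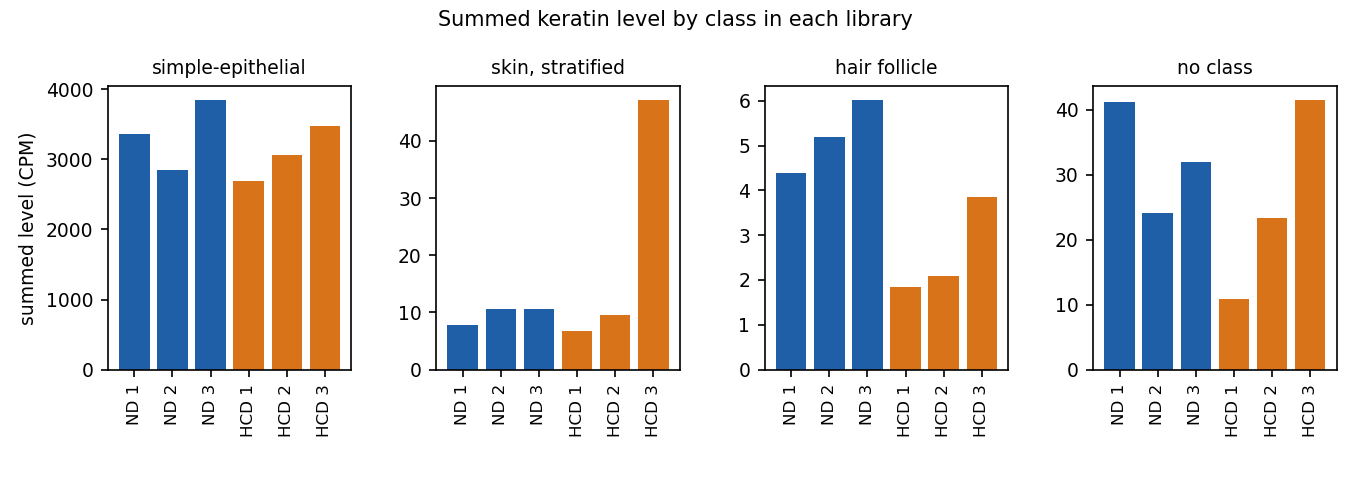
Summed level (CPM) of the members of each class in each library, with a separate vertical scale from 0 in each panel (blue ND, orange HCD). The simple-epithelial sums lie between 2697 and 3849.9 CPM, and the skin sum of HCD 3 is 47.2 CPM against at most 10.6 CPM in the other 5 libraries.

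The summed simple-epithelial level was 3357, 2845 and 3849.9 CPM in ND and 2697, 3059 and 3476 CPM in HCD libraries. HCD 1 and ND 2 were lowest. The same 2 libraries had the highest summed level of 6 skeletal muscle genes, 1672 CPM in HCD 1 and 1617 CPM in ND 2, against 9.96 to 186 CPM in the other 4. The part of the muscle RNA in these keratin levels was not tested. With both libraries left out, the simple-epithelial median log2 fold change was -0.11 instead of -0.19, while that of Krt7 was -0.66 instead of -0.50 and that of Krt20 was -0.41 instead of -0.19. A list of 8 bile duct genes, some of which share cell types with Krt7 and Krt19, summed to 697, 453 and 452 CPM in ND and 300.4, 354 and 474 CPM in HCD libraries. Its 4 tested members were all lower in HCD tumours (median log2 fold change -0.31), and 0 passed.

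Skin and other stratified keratins stood apart in 1 library. Their sum was 7.72, 10.6 and 10.6 CPM in ND, 6.70 and 9.47 CPM in HCD 1 and HCD 2, and 47.2 CPM in HCD 3. Of the 17 members, 14 had counts, 9 of these were highest in HCD 3, against 17.2% of all genes with counts, and 4 had enough counts to be tested. For Krt4 and Krt79, 2 of the 9, HCD 3 exceeded the next library by less than 1 count's worth. The median log2 fold change of these 4 was 0.65, and it was -0.04 without HCD 3 and 1.12 without ND 2 and HCD 1.

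Krt14, the type I keratin of basal epidermis (ENSMUSG00000045545, chromosome 11, 100203162 to 100207548), had 0.402, 1.40 and 0.340 CPM in ND and 0.0964, 1.30 and 13.4 CPM in HCD libraries. HCD 3 held 275 of its 357 counts. Its log2 fold change was 2.75 with an interval of -0.61 to 6.12, and -0.05 without HCD 3. It was 1.04 with limma-voom and 4.29 without ND 2 and HCD 1. Krt5, its type II partner (ENSMUSG00000061527, chromosome 15, 101707070 to 101712898), had 2.55, 3.59 and 1.31 CPM in ND and 2.46, 2.95 and 11.8 CPM in HCD libraries. Its log2 fold change was 1.20, and 0.11 without HCD 3. In the other 5 libraries Krt5 exceeded Krt14 by FPKM, while in HCD 3 Krt14 had 7.48 and Krt5 5.28 FPKM. Exons of Krt5 overlap the antisense gene Gm44323.

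The keratins of activated epidermis were counted almost entirely in HCD 3. Krt17 had 135 of its 136 counts there (6.57 CPM, against at most 0.0482 CPM elsewhere) and Krt16 had 96 of 97 (4.68 against at most 0.0483 CPM). Both had 0 counts in the 3 ND libraries. Krt6a and Krt6b, their type II partners, whose symbols end in a letter and so lie outside the rule, had 222 of 243 and 178 of 178 counts in HCD 3. Krt14, Krt16 and Krt17 are close copies of each other, as are Krt6a and Krt6b, and how reads with several matches were shared is not given in the sources used here. Krt16 and Krt17 did not have enough counted libraries to be tested.

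The keratins of the upper epidermal layers followed in part. Krt1 had 17 of its 19 counts in HCD 3 (0.828 CPM). Krt10, its partner, had 2.14, 1.97 and 3.35 CPM in ND and 3.04, 1.84 and 3.12 CPM in HCD libraries, with HCD 3 inside the range of the others and a log2 fold change of 0.10 (interval -0.67 to 0.88). It overlaps the antisense gene Gm11940. Krt15, another basal keratin, had 6 of its 15 counts in HCD 3. Krt2, Krt9 and Krt24 had 0 counts in all libraries. Krt76, a keratin of the oral palate (ENSMUSG00000075402, chromosome 15, 101884351 to 101892920), behaved otherwise, with 2.05, 3.18 and 5.14 CPM in ND and 0.579, 2.85 and 5.94 CPM in HCD libraries. Its exons overlap the antisense gene Gm44356. HCD 3 and ND 3 were both high and HCD 1 low, and the log2 fold change was -0.14 (interval -1.88 to 1.59). The other 6 members of this class with counts had between 1 count (Krt77) and 20 counts (Krt4) in total.

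**Figure D4:**
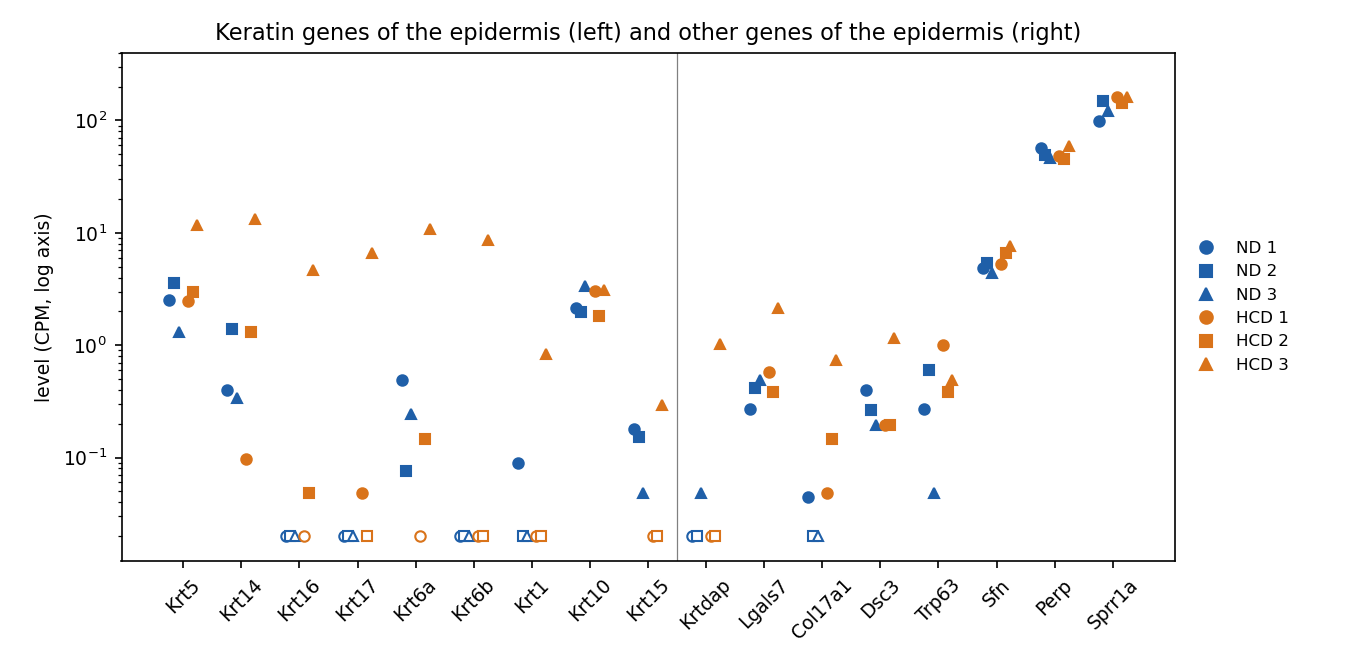
Level (CPM, log axis) in each library of 9 keratin genes of the epidermis (left, Krt6a and Krt6b included) and 8 other genes of the epidermis (right), with open symbols at the bottom for 0 counts. HCD 3 is highest for 8 of the 9 keratin genes, the exception being Krt10. The genes shown were chosen after their values were seen, so this count partly reflects the choice. Of the 14 skin and other stratified keratins with counts, 9 are highest in HCD 3, against 17.2% of all genes with counts. On the right, Krtdap and Col17a1 have 0 counts in some libraries, while Lgals7, Dsc3, Trp63, Sfn, Perp and Sprr1a are counted in all.

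Genes of the epidermis that are not keratins were set beside these values. Of 24 measured, 23 had counts and 14 of these were highest in HCD 3, against 17.2% of all genes with counts. Of these 14, 9 had a mean under 1 CPM, such as Dsg1a with 4 counts in total. Some were near ties, such as Sbsn with 6.672 CPM in HCD 3 and 6.667 CPM in HCD 2. Others of the list were highest elsewhere, such as Ivl, with 2 of its 28 counts in HCD 3. Tgm1 had 1.27 CPM in HCD 3 and 2.96 CPM in ND 3. Krtdap, a gene of differentiating keratinocytes, had 21 of its 22 counts in HCD 3. Col17a1, a collagen of hemidesmosomes, had 15 of 20 counts there, and Dsc3, a desmosomal cadherin of basal epidermis, 24 of 52. Lgals7, a galectin of stratified epithelia, had 2.14 CPM in HCD 3 and at most 0.579 CPM elsewhere. Trp63, the transcription factor gene of basal cells, was highest in HCD 1 at 1.01 CPM, with 0.487 CPM in HCD 3, and Lor, the loricrin of the cornified layer, had 0 counts in all libraries. The summed level of the list was 185, 235 and 198 CPM in ND and 239, 219 and 265 CPM in HCD libraries, most of it from Sprr1a and Perp, which were high throughout. The part of such other epidermal RNA in the skin keratin values was not tested.

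Hair follicle keratins were low, and Krt39 and Krt83 alone reached a mean of 1 CPM in a diet. Of 22 members, 17 had counts, 21 had a mean under 1 CPM, 5 had 0 counts in all libraries (Krt28, Krt32, Krt34, Krt74 and Krt84), and 2 could be tested. Krt39, a type I hair shaft keratin (ENSMUSG00000064165, chromosome 11, 99514114 to 99521338), had 2.41, 3.52 and 3.15 CPM in ND and 0.434, 0.870 and 2.53 CPM in HCD libraries. HCD 1 and HCD 2 lay below all ND libraries, and HCD 3 lay above ND 1. Its log2 fold change was -1.24 ± 0.59 SE (interval -2.64 to 0.16). In the main edgeR fit Krt39 had the smallest unadjusted p of the family (0.0738) and an adjusted p of 0.839. Without HCD 3 the log2 fold change was -2.21, with an edgeR adjusted p of 0.723, and with ND 2 and HCD 1 left out it was -0.70.

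The other tested hair gene, listed as Krt83 (ENSMUSG00000047641, chromosome 15, 101431038 to 101438804), is named Krt87 in GENCODE M21. It had 1.07, 0.719 and 1.70 CPM in ND and 0.868, 0.725 and 0.682 CPM in HCD libraries. The HCD libraries lay close together at the lower end, ND 2 lay among them, and the log2 fold change was -0.60 (interval -1.53 to 0.32). The hair class sum was 4.38, 5.18 and 6.02 CPM in ND and 1.83, 2.08 and 3.85 CPM in HCD libraries, without overlap. Single genes lay all below in HCD in 6.36% of those tested, both tested members overlapped, and the sum was not tested. By deposited FPKM, Krt39 was the highest member of the class in 4 libraries and Krt83 in HCD 1 and HCD 2. In HCD 2 this depends on the length used. With GENCODE lengths Krt39 had 0.540 and Krt83 0.322 FPKM there, against 0.271 and 0.388 FPKM in HCD 1. Among 16 other hair follicle genes, 6 had 0 counts, all of them hair keratin-associated protein genes. Krtap4-16, another gene of that kind, had 154 counts in total and averaged 1.19 ± 0.406 CPM (SD, n = 6). The list summed to between 168 and 214 CPM, nearly all from Lgr5, a gene that other epithelia also express. The inner root sheath gene Tchh lay between 2.92 and 4.35 CPM and Padi3 between 5.94 and 10.1 CPM, with overlap between the diets for both.

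By keratin type, the 26 type I members summed to between 1175 and 1653 FPKM and the 21 type II members to between 509 and 710 FPKM per library. The ratio of the sums was 2.31, 2.19 and 2.33 in ND and 2.31, 2.12 and 2.20 in HCD libraries, above 2 in each. With Krt7 scaled by its GENCODE length the ratio lay between 2.07 and 2.23.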

How the data were processed

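RNA of 6 tumours was measured, 3 per diet, with diet and number taken from the labels. Per the labels' protocols, column-purified total RNA was sequenced from paired-end TruSeq libraries. The deposited table holds, for 34745 genes, raw counts and FPKM, in which the authors scaled counts by gene length and library total. Per the submitters' processing notes, the tools included edgeR, HTSeq, TopHat2 2.0.9 and CASAVA 1.8 and the build was mm10, with no roles stated. Which annotation release and strand setting were used, and how multiply mapped reads were handled, is not given in the sources used here. Lengths behind the FPKM values were recovered from the counts and differed from GENCODE for some members, which changes levels between genes but not between libraries. No 2 libraries were near-duplicates: the chi-square per gene of any pair was at least 13.8.

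Library totals were scaled by TMM factors (0.979 to 1.02). Diets were compared with edgeR 4.0.16 (R 4.3.3), using its quasi-likelihood test in the legacy form, with diet as the term, default filter (minimum count 10, total 15), prior count 0.125 and Benjamini-Hochberg adjustment over all tested genes at a threshold of 0.05. The code was tested on simulated counts with the same spread for every gene, which does not give its power for genes as variable as some keratins here. Standard errors were derived from each gene's F statistic, and intervals are 95%. The members and gene lists were chosen with earlier results of these data known, and classes are described by counts and medians with no list test. Members that reached a mean of 1 CPM in a diet are given per library, with the tested member of the smallest p in each direction among the rest (Krt222, the one such gene). Up to 3 genes of each other list were to be named by level or as defining markers at 0, and further ones were named after their values were seen. Flg and Itgam, which have several rows, and Eppk1, Krt85 and Krt87, which matched no row by symbol, were left out of the lists. Alternatives were DESeq2 1.42.0 and upper quartile scaling, 2 other filters, adjusted deviances, the DESeq2 Wald test, limma 3.58.1 (voom and log2 of FPKM plus 1 or 0.1, filtered at 1 FPKM in 3 libraries or not), a block for replicate number, leaving out each library, and a threshold of 0.1. GENCODE lengths, the 4 keratin genes ending in a letter and leaving out ND 2 with HCD 1 were added after seeing the data. Coordinates are GENCODE M21 (GRCm38), in which all 47 members were found by identifier.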

Additional observations from a re-analysis of the deposited data

How the results depend on the processing

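No keratin gene was called higher or lower in any of the alternatives run. Over all genes, edgeR called 0, the DESeq2 Wald test 6 lower, and leaving out 1 library gave 0 to 2 lower (2 without ND 2). The median log2 fold change ran from -0.28 to -0.00313 for simple-epithelial, from -0.04 to 0.95 for skin and from -1.37 to -0.72 for hair follicle keratins without 1 library. The skin median of 0.65 rested on 4 tested genes. It was 0.104 with the stricter filter, 0.062 with limma on log2(FPKM + 1) and 0.105 with a pseudocount of 0.1. In these settings 3 skin genes were tested, Krt14 was filtered out, and the median was the value of Krt10. Krt5 had log2 fold changes of 1.19, 0.60 and 0.90 in them. With no FPKM filter the skin median over 14 genes was 0.035. The hair median rests on few genes and was -1.24 with no filter, -1.24 with the stricter filter (Krt39 alone tested), -0.61 with limma on log2(FPKM + 1), -1.34 with a pseudocount of 0.1 and -0.0095 with no FPKM filter. Signs turned without 1 library for Krt8 (-0.14 to 0.060), Krt20 (-0.45 to 0.13), Krt10 (-0.038 to 0.37), Krt14 (-0.052 to 3.72), Krt76 (-1.01 to 0.35), Krt80 (-0.053 to 0.49) and Krt222 (-0.33 to 0.87). With ND 2 and HCD 1 left out, the log2 fold change was -0.14 for Krt10, 0.037 for Krt19 and 0.30 for Krt76. Apart from the libraries and settings named, the cause was not tested.

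With the replicate number as a block, 0 keratin genes were called, with log2 fold changes of -0.51 for Krt7, -1.53 for Krt39 and 1.22 for Krt14. Deviations of libraries with the same number had correlations of -0.31, 0.14 and 0.08, and each ND library correlated best with an HCD library of another number, so the numbers were not taken to pair the samples. Of the 47 members, 14 had counts in enough libraries to be tested. With no filter, 39 were tested and 0 called. At this depth 3 counts are 0.114 to 0.147 CPM per library, near or above the level of most of the rest.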
